A study of Mus musculus with 6 samples.

Results

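Snora81, Snora63 and Snora4 are 3 small nucleolar RNAs (snoRNAs) of the box H/ACA class that mouse Eif4a2, the gene of a translation initiation helicase, carries in its introns. Their contacts with other RNAs were read in 4 MARIO libraries. The rule took every read pair in which either end was named for 1 of 6 gene names, which are the intronic gene and a second annotated copy of each snoRNA: ENSMUSG00000087935_Snora81 and ENSMUSG00000088895_SNORA81, ENSMUSG00000064382_SNORA63 and ENSMUSG00000065884_SNORA63, and ENSMUSG00000065208_SNORA4 and ENSMUSG00000064665_SNORA4. They are 6 of the 26158 gene and repeat names in the 4 libraries. They were chosen by their number of read pairs and their called partners in ES cells, so the values of the ES libraries, their called partners included, are given as a description and with no p-value, and the choice used no value of ES indirect or MEF.

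In MARIO, RNAs are crosslinked to the proteins that hold them, their ends are joined through a biotinylated linker while on beads, and each chimeric molecule is read as a first fragment (RNA1), the linker and a second fragment (RNA2). ES-1 and ES-2 were made from E14 embryonic stem cells of strain 129/Ola after ultraviolet crosslinking at 254 nm, with RNA cut by RNase I to about 1000 nt per the labels, while the study's methods give a longer upper size for ES-1. ES indirect came from the same line, crosslinked with formaldehyde and EGS and sonicated, and MEF from C57Bl/6 embryonic fibroblasts crosslinked at 254 nm and cut by RNase I to about 300 nt. A duplex-specific nuclease removed ribosomal RNA (rRNA) in ES-1 and ES indirect and the GeneRead kit did so in ES-2 and MEF. ES was the only group with 2 libraries, ES indirect and MEF had 1 library each, and cell type, strain, fragment size, crosslinking and depletion cannot be told apart between the groups.

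Box H/ACA snoRNAs fold into a pair of hairpins and end in a short tail after the ACA box, a triplet close to the 3′ end. With dyskerin (Dkc1), Nhp2, Nop10 and Gar1 they form the particle that converts chosen uridines of ribosomal RNA to pseudouridine, which the snoRNA selects by pairing within a pocket of the hairpin. Most are released from introns of host genes and trimmed at both ends to the particle's borders. Their 3′ ends can receive a few untemplated A, added by the polymerase Papd5 and removed again by the exonuclease Parn.

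The 3 intronic sequences are shown because the ends and the misnamed partners described here are read against them. They are written 5′ to 3′ from NCBIM37 (mm9), plus strand, with T for U, and capitals mark the ACA box (ATA in Snora81).
Snora81, chr16:23110829-23111006: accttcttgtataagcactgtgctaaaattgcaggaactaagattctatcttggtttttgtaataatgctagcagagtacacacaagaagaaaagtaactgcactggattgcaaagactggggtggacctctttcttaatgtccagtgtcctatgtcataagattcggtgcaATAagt
Snora63, chr16:23111374-23111502: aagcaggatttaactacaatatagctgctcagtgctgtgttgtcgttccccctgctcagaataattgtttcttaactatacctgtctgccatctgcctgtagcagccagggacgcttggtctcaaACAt
Snora4, chr16:23111690-23111828: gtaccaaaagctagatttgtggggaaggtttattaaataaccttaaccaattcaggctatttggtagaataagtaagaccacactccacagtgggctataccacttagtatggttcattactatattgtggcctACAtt
All lie inside Eif4a2 (chr16:23107517-23114209, plus strand) and overlap no exon of its protein-coding transcripts. The second copies lie at chr15:71624618-71624795 on the plus strand, at chr4:74926530-74926659 on the minus strand and at chrX:147974243-147974348 on the minus strand, within Phf8 but on the other strand.

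Read pairs with 1 of the 3 snoRNAs were frequent in the libraries crosslinked with ultraviolet light and rare in ES indirect. ES-1 held 195893 among 3230403 read pairs (6.06%) and ES-2 held 42573 among 1312314 (3.24%). ES indirect held 741 among 3302146 (0.0224%, 95% Wilson interval 0.0209 to 0.0241), and MEF held 5158 among 474526 (1.09%, 1.06 to 1.12). The mean of the 2 ES libraries was 4.65% ± 1.99 (SD, n = 2). Intervals cover counting error only, since lines of the files are not independent molecules. The share in MEF lay below both ES libraries, and that in ES indirect lay below all others.

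Snora81 was the most frequent of the 3 in every library, followed by Snora63 and then Snora4. Snora81 took 3.48% of the read pairs of ES-1, 2.09% in ES-2, 0.0115% of ES indirect and 0.746% of MEF. Snora63 took 1.43%, 0.678%, 0.00724% and 0.218%, and Snora4 took 1.17%, 0.480%, 0.00370% and 0.124%. The intervals of neighbours in this order did not overlap in any library. Among the H/ACA names of the same library, Snora81 ranked first in ES-1 (of 174 names), ES-2 (of 122) and MEF (of 80) and was number 5 in ES indirect (of 35). In the same order of libraries, with MEF last, Snora63 ranked 5, 2, 11 and 8, and Snora4 ranked 6, 7, 32 and 24. In these ranks both names of each of the 3 snoRNAs were counted together, while every other H/ACA name stood alone. The ranks against other H/ACA snoRNAs with their several names joined were not tested.

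**Figure D1:**
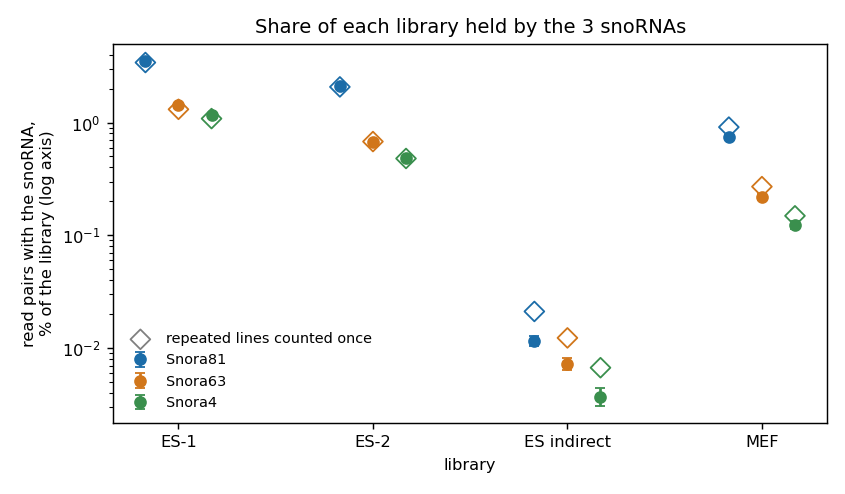
Share of each library's read pairs (%, log axis) with Snora81, Snora63 or Snora4. Filled points are all lines with 95% Wilson intervals and open diamonds count each repeated pair of coordinates once; Snora81 is the highest in each library, from 3.48% in ES-1 to 0.0115% in ES indirect.

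Lines that repeated the coordinates of both fragments made up 31.8% of the read pairs of the 3 snoRNAs in ES-1, 6.07% for ES-2, 10.4% in ES indirect and 3.68% for MEF, beside 28.5%, 5.37%, 49.9% and 21.2% over each whole library. ES-1 had been read on 2 flow cells, and the repeated share of these read pairs was 44.7% on the first and 8.34% on the second, while the snoRNAs' share was 6.08% and 6.04%. A line counted as repeated if an earlier line of the library, from either flow cell, held its coordinates. The repeated shares by flow cell thus depend on the order of the lines and are not each flow cell's own rate. In MEF the snoRNAs' share differed between flow cells, 1.58% (1.53 to 1.62) on the first and 0.213% (0.192 to 0.236) on the second. The cause of that difference was not tested. Of the distinct coordinate pairs of ES-2, 280 were also in ES-1 (0.70%), and ES indirect and MEF shared 1.

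Fragments under the names of the second copies mostly fitted the Eif4a2 gene better for Snora63, and for Snora4 in ES-1 and ES indirect. Those of Snora81 could mostly not be assigned, nor could most of those of Snora4 in ES-2 and MEF. The names of the second copies took 24.3% of Snora81 ends in ES-1 and 51.3% for ES-2, beside 24.4% and 66.5% of Snora63 ends. Of the fragments named for the chromosome 4 copy of Snora63 in ES-1, 11144 had fewer mismatches to the Eif4a2 gene and 30 fewer to the copy. For those named for the chromosome X copy of Snora4 the numbers were 11738 and 37 in ES-1, and 1632 and 43 in ES-2, where 1860 others fitted both equally. In MEF they were 43 and 1, and 124 others fitted both equally. The Snora81 copy differs within the RNA by T29C and G122A (Eif4a2 base, position from the 5′ end, copy base). Fragments named for the intronic gene carried the Eif4a2 base at position 29 in 28104 of 28133 cases in ES-1 and at position 122 in 51335 of 51355. Of the 28861 fragments placed under the name of the copy in ES-1, 28703 covered neither position. Of the few that did, 47 had the Eif4a2 base and 36 the copy base at position 29, and 28 and 24 at position 122. In ES-2 the counts were 17 and 9 at position 29 and 0 and 8 at position 122, and in MEF 2 and 13 and 0 and 2, so some fragments carried the copy's own bases. Among the 28861, 21713 had fewer mismatches to the copy, and 21631 of these held a C after the 3′ end, where the copy has C and the Eif4a2 gene has A. The linker also begins with C, so that base does not tell the genes apart. Both names of each snoRNA are counted together in what follows, placed on the Eif4a2 sequence, except in the test of pairs, which kept the deposited names.

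In both ES libraries the snoRNAs stood mostly on the RNA1 side, so that the linker followed their 3′ part. Among read pairs with a single end in the 3 snoRNAs, that end was RNA1 in 84.9% in ES-1, 77.2% for ES-2, 58.7% in ES indirect and 56.9% for MEF. Snora4 was RNA1 in 44.4% (35.4 to 53.9) of such read pairs of ES indirect and 50.6% (46.5 to 54.7) of MEF, so neither side was favoured beyond counting error. With pairs inside the RNA included, RNA1 was the snoRNA in 83.5% of the read pairs of Snora81, 87.9% of Snora63 and 88.6% of Snora4 in ES-1, beside a median of 75.6% over 171 other H/ACA names. In ES-2 the values were 73.2%, 85.1% and 87.6%, beside a median of 75.5% over 119 names, so Snora81 lay below the median there. In MEF the values were 54.0%, 75.1% and 51.5%, beside a median of 38.1% over 77 names.

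As RNA1, the snoRNA fragments of ES cells ended mostly close to the annotated 3′ end. The 3′ terminus was set as the most frequent last base of these fragments in the ES libraries within 15 bases of that end, so a peak there follows from the definition. It was position 178 of Snora81, which is the annotated end, and positions 131 of Snora63 and 141 of Snora4, which are 2 bases past the annotated ends. These lie 3, 3 and 4 bases after the triplet. The share of RNA1 ends within 2 bases of this terminus in Snora81 was 56.9% in ES-1, 75.1% for ES-2, 28.2% in ES indirect and 23.9% for MEF. In Snora63 it was 58.5%, 89.0%, 25.4% and 5.46%, and in Snora4 52.4%, 68.9%, 30% and 49.5%. The ES means were 66.0% ± 12.8 for Snora81, 73.8% ± 21.6 for Snora63 and 60.7% ± 11.6 for Snora4 (SD, n = 2). Fragments of the full read length, whose end is the end of the read, were left out. ES indirect and MEF lay below both ES libraries for all 3 snoRNAs, but for Snora4 the interval of MEF (43.8% to 55.2%) held the value of ES-1. The part that fragment size and crosslinking had in this was not tested.

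As RNA2, most Snora81 fragments of ES cells started near base 1, and the other snoRNAs and libraries varied. The share of RNA2 starts within 2 bases of it in Snora81 was 57.3% in ES-1, 62.1% for ES-2, 20.8% in ES indirect and 26.4% for MEF. In Snora63 it was 53.8%, 28.6%, 22.0% and 17.4%, with the base before the annotated start, position 0, the most frequent in both ES libraries. In Snora4 it was 35.2%, 23.3%, 44.8% and 61.9%, so that here MEF was the highest and ES-2 the lowest. The median start was position 1 for Snora81 in ES-1 and ES-2, 89 in ES indirect and 48 for MEF. For Snora63 it was 1, 13, 16 and 48, and for Snora4 15, 46, 17 and 2.

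Breaks inside the RNAs fell at a few positions that came back between libraries. RNA1 fragments of Snora81 ended at position 131 in 8.03% in ES-1, 7.64% for ES-2, 8.25% in ES indirect and 13.5% for MEF, and at position 46 in 2.88%, 3.15%, 2.91% and 2.98%. RNA2 fragments of Snora81 started at position 13 in 7.58%, 5.15%, 4.17% and 10.7%. Other breaks stood out in MEF alone. RNA1 fragments of Snora81 ended at position 112 in 13.2% of MEF and in at most 1.94% of the other libraries, and RNA2 fragments of Snora63 started at position 95 in 25.4% of MEF and in at most 2.00% elsewhere. These positions were picked after the profiles were seen.

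The largest such difference was position 73 of Snora63. RNA1 ended there in 1.35% in ES-1 (495 of 36778), 0.334% for ES-2 (25 of 7492), 19.0% in ES indirect (27 of 142) and 39.9% for MEF (307 of 770). Of the 307 in MEF 304 were distinct, 162 were joined to rRNA, and 41 were in read pairs that held a piece of the linker. The RNA2 start at position 12 of Snora63 was likewise more frequent in ES indirect (23.0%) and MEF (20.6%) than in ES-1 (7.03%) and ES-2 (8.0%). Position 75 as the RNA2 start went the other way, with 386 of 6995 fragments in ES-1 (5.52%), 199 of 1425 for ES-2, 0 of 100 in ES indirect and 2 of 311 for MEF (0.643%). ES indirect and MEF thus stood apart from both ES libraries at position 73. They differed from each other in cell type, strain, crosslinking, fragmentation, fragment size and rRNA depletion. Both were read on the same flow cells and shared 1 coordinate pair of the snoRNAs. The part of the shared runs and of these differences was not tested.

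**Figure D2:**
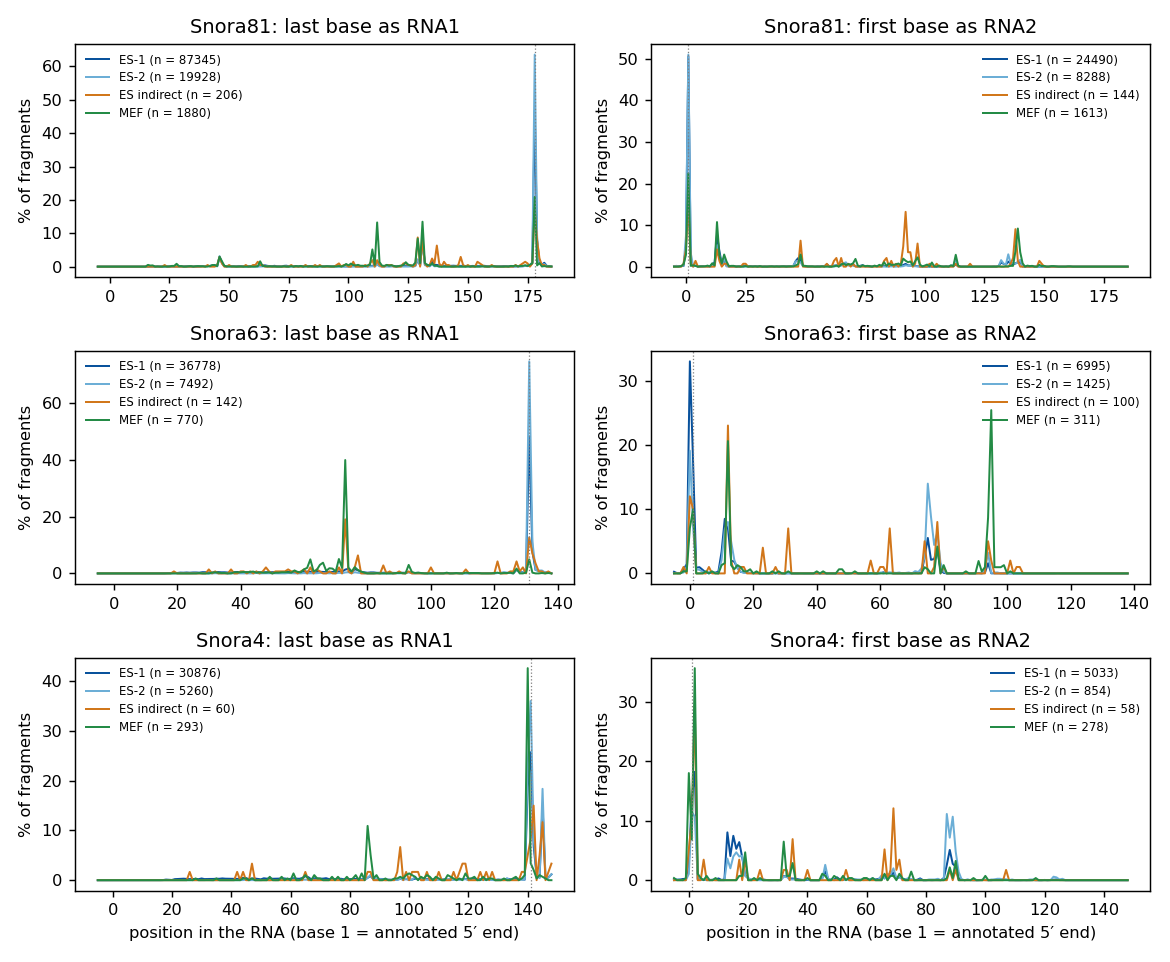
Last base of RNA1 fragments (left) and first base of RNA2 fragments (right) along each snoRNA, as % of the fragments placed on it, by library; the dotted lines mark the measured 3′ terminus and base 1. The ES-1 and ES-2 lines peak at the termini, and MEF (39.9%) and ES indirect (19.0%) peak at position 73 of Snora63.

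Fragments that reached the 3′ terminus carried bases that the Eif4a2 gene does not hold there. In most Snora4 fragments of ES-1 and ES-2 these included A. In all 3 snoRNAs most such fragments closed with a C, in 95.6% of Snora81, 95.2% of Snora63 and 93.7% of Snora4 fragments of ES-1, and the linker itself begins with C, as does the genome after the chromosome 15 copy of Snora81. In Snora81 and Snora63 this C was usually the only added base, in 77.8% and 78.2% of ES-1 fragments and 81.8% and 81.0% of ES-2 fragments. In Snora4 it was alone in 23.4% of ES-1 and 25.8% of ES-2 fragments.

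Added A were counted only where they followed the last base that the Eif4a2 gene explains. That gene holds an A right after the terminus of Snora81, so a first A was not counted there. It holds a T after those of Snora63 and Snora4. The bases after the second copies were not compared in this count. The name of the chromosome X copy held 33.5% and 55.0% of Snora4 ends in ES-1 and ES-2. Added A were in 60.3% of the Snora4 fragments of ES-1 (9492 of 15750), 59.8% of ES-2 (2171 of 3630), 51.9% of ES indirect (14 of 27) and 18.8% of MEF (3 of 16). In Snora81 they were in 8.66% of 49988, 7.58% of 14704, 16.4% of 61 and 0.457% of 438 fragments. In Snora63 they were in 9.03% of 21539, 8.26% of 6674, 10.8% of 37 and 2.44% of 41 fragments. Snora4 stood above both others in all 4 libraries, and its 2 ES libraries differed by less than their counting error. The most frequent last base of Snora4 in MEF was position 140 (125 of 293 fragments), 1 base before the terminus, so most of its ends are not among the 16 counted. In MEF the interval of Snora4 was 6.59% to 43.0%, which overlaps that of Snora63 (0.432% to 12.6%). With that first A counted too, a choice made after seeing the data, the share of Snora81 was 13.4% in ES-1, 11.5% for ES-2, 27.9% in ES indirect (18.2 to 40.2) and 1.14% for MEF, still below Snora4 in each; the interval of Snora4 in ES indirect was 34.0% to 69.3%. Counting distinct coordinate pairs only, the share of Snora4 was 60.8% in ES-1 and 60.1% in ES-2. Fragments with 2 or more added A were 42.6% and 40.5% of the Snora4 fragments of ES-1 and ES-2, and 3.79% and 3.13% of those of Snora81 (8.37% and 7.33% with the first A counted).

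**Figure D3:**
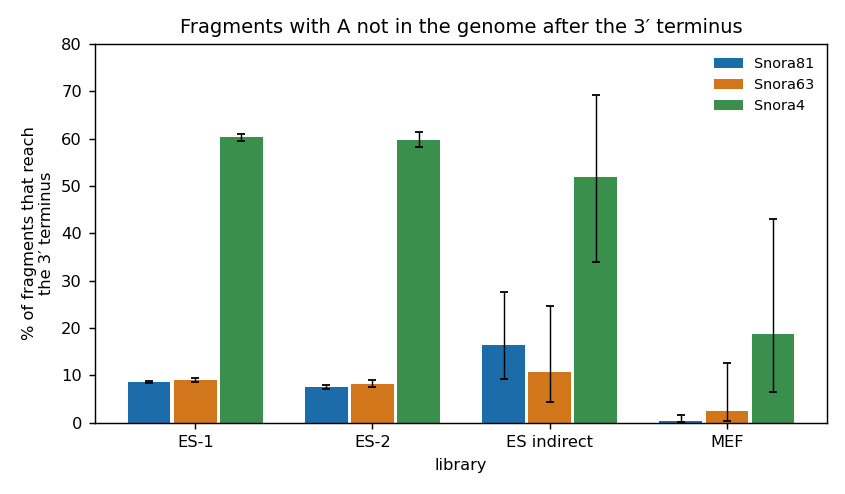
Share of fragments reaching the 3′ terminus (%) that carry 1 or more A that the Eif4a2 gene does not hold there, by snoRNA and library. Bars are single libraries and whiskers 95% Wilson intervals. Snora4 is at 60.3% and 59.8% in ES-1 and ES-2, where Snora81 and Snora63 stay under 10%; with a first A that the genome holds counted too, Snora81 is at 13.4% and 11.5%.

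Ribosomal RNA was the most frequent partner. It was the other end of 63.1% of the read pairs of the 3 snoRNAs in ES-1, 59.4% for ES-2, 44.2% in ES indirect and 33.5% for MEF (32.2 to 34.8). Protein-coding genes were the other end of 8.93%, 14.7%, 23.3% and 24.1%, and other H/ACA snoRNAs of 9.33%, 4.74%, 2.70% and 7.49%. The same snoRNA was the other end in 5.44% in ES-1, 3.39% for ES-2, 10.1% in ES indirect and 2.40% for MEF. The rRNA share lay within the range of other H/ACA names. In ES-1 the rRNA shares of Snora81, Snora63 and Snora4 were 61.5%, 64.2% and 66.6%, and 65, 47 and 34 of 171 other H/ACA names were above them. In MEF they were 33.2%, 41.2% and 21.4%, with 14, 4 and 63 of 77 names above. In ES indirect they were 47.0%, 43.1% and 37.7%, with 1, 2 and 5 of 32 names above.

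**Figure D4:**
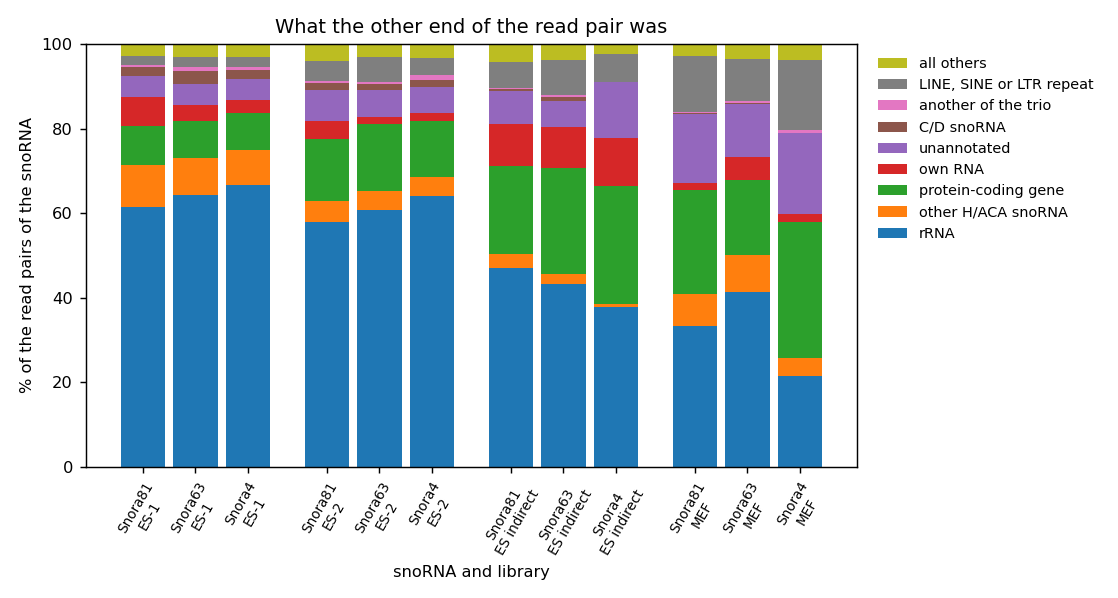
Class of the other end of each read pair, as % of the read pairs of each snoRNA in each library; each bar is 1 library and sums to 100. rRNA is the largest class in every bar except Snora4 in MEF, where protein-coding genes (32.2%) are above rRNA (21.4%).

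Of the read pairs with the large (LSU) or small subunit (SSU) rRNA, the LSU held 67.9% in ES-1, 75.2% for ES-2, 91.4% in ES indirect and 87.7% for MEF. rRNA fragments were placed by the authors on scattered genomic copies, so a locus stands for a stretch of rRNA. For Snora63 a single LSU locus, chr9:123370915-123371310, stood out after its values were seen. It held 3278 of 29481 LSU and SSU read pairs in ES-1 (11.1%), 684 of 5366 for ES-2 (12.7%, 11.9 to 13.7), 4 of 74 in ES indirect (5.41%, 2.12 to 13.1) and 7 of 422 for MEF (1.66%, 0.806 to 3.38). Snora81 had 4.07% and 1.74% there in ES-1 and ES-2, and Snora4 4.09% and 1.80%. Among other H/ACA names the median was 4.26% in ES-1 with 2 of 153 above Snora63, 1.77% in ES-2 with 0 of 95 above it, and 1.08% in MEF with 4 of 31 above it. The other SNORA63 of Eif4a2, ENSMUSG00000064880_SNORA63, was also above most names, at 7.93% in ES-1 (7.48 to 8.42), 5.86% for ES-2 (4.74 to 7.23) and 1.36% for MEF (0.580 to 3.13), with 6 of 152, 1 of 94 and 10 of 30 names above it. Counting distinct coordinate pairs, Snora63 itself held 9.02% and 12.5% in ES-1 and ES-2, and 2 of 65 (3.08%) in ES indirect.

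At this locus the rRNA fragment was mostly RNA2, and its first base clustered. Within 5 bases of chr9:123371084 lay 637 of 3223 starts for Snora63 in ES-1 (19.8%) and 302 of 669 in ES-2 (45.1%), beside 7.73% and 19.2% for other H/ACA names. That base was the most frequent start of Snora63 in ES-1 (142 of 3223), so the ES-1 share depends in part on where the window was set. Snora81 had 8.40% and 15.9% there in ES-1 and ES-2, and Snora4 10.4% and 20.6%. For Snora63 in ES indirect it was 2 of 2 starts, from 1 distinct coordinate pair. In MEF it was 1 of 7, beside 14 of 100 for other H/ACA names. The stretch is shown because these fragments start in it, with capitals for the 11 bases of that window, plus strand of NCBIM37.
LSU rRNA, chr9:123371064-123371143: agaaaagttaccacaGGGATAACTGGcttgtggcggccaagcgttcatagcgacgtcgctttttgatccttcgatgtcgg

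**Figure D5:**
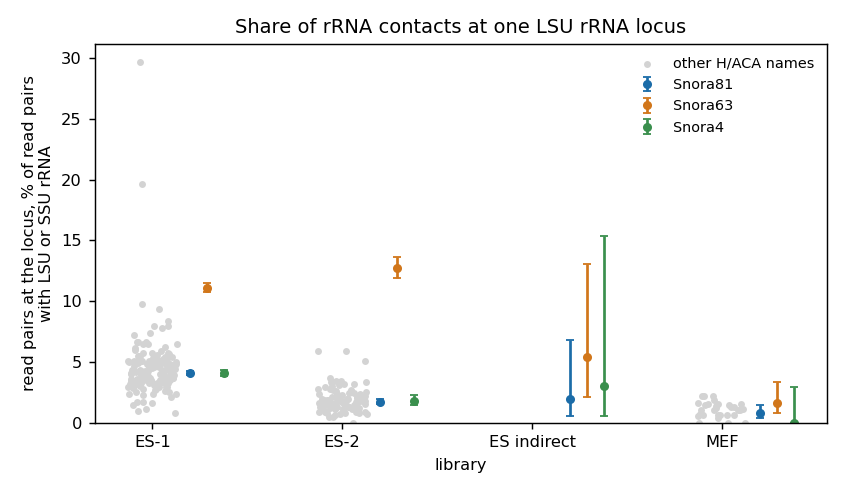
Read pairs at the chromosome 9 LSU rRNA locus as % of all read pairs with LSU or SSU rRNA. Coloured points are Snora81, Snora63 and Snora4 with 95% Wilson intervals and grey points other H/ACA names with at least 100 such read pairs; Snora63 is at 11.1% and 12.7% in ES-1 and ES-2, against medians of 4.26% and 1.77%.

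Contacts with the host gene were rare. The 3 snoRNAs were joined to Eif4a2 outside the snoRNAs by 1 read pair in ES-1, 1 for ES-2, 1 in ES indirect and 0 for MEF, where Eif4a2 itself had 40, 13, 44 and 0 read pairs. From the totals of both sides, 5.49, 1.11, 0.0451 and 0 were expected. The Snora4 contact of ES-1 lay at chr16:23111539-23111558, upstream of Snora4, and the Snora63 contacts at chr16:23110212-23110241 in ES-2 and chr16:23111285-23111323 in ES indirect. None was called, since a call needed 3 read pairs and an adjusted p under 0.05 in a one-sided Fisher's exact test, and with both names of a snoRNA joined and neighbours kept 10.4%, 1.28%, 7.43% and 2.88% of all pairs of RNAs were called. The Snora63 contact of ES indirect had an adjusted p of 0.0327 by that exact test but a single read pair. With 0 to 44 counted read pairs of Eif4a2 in a library, a weak contact was not detectable at this depth.

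Contacts among the 3 snoRNAs were fewer than their totals would give in both ES libraries. In ES-1 they numbered 636 against 2051 expected (ratio 0.310), in ES-2 110 against 282.5 (0.389), in ES indirect 1 against 0.0878, and in MEF 7 against 11 (0.636). The ES mean ratio was 0.350 ± 0.056 (SD, n = 2). Low ratios were common between H/ACA names: the median over the other pairs was 0.396 in ES-1, 0.433 in ES-2 and 1.008 in MEF. These medians cover only pairs seen in at least 1 read pair with at least 3 expected. Unseen pairs were left out, which can only raise the median, and the ratio of the 3 snoRNAs had no such filter. With both fragments at least 20 nt, the ratio among the 3 snoRNAs in MEF was 0.326 (6 against 18.4) and the median of the other pairs 0.539, nearer to the ES values. By pair, ES-1 had 297 read pairs of Snora81 with Snora63, 247 of Snora81 with Snora4 and 92 of Snora63 with Snora4, and none of the pairs was called in any library. A further H/ACA snoRNA of the same host, ENSMUSG00000064880_SNORA63, had 301 read pairs with Snora81 in ES-1 (ratio 0.553), 34 for ES-2 (0.547), 0 in ES indirect and 8 for MEF (1.75; adjusted p = 0.14 by Fisher's exact test). Snord2, a C/D snoRNA of the same gene, had 9 read pairs with Snora81, 4 with Snora63 and 9 with Snora4 in ES-1.

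In both ES libraries, read pairs within 1 snoRNA mostly joined its 3′ part to its 5′ part. RNA1 lay 3′ of RNA2 without overlap in 76.9% of the own read pairs of Snora81, 81.5% of Snora63 and 84.1% of Snora4 in ES-1, and in 83.4%, 91.8% and 76.5% in ES-2. In this order the linker stands between the 3′ part and the 5′ part. Fragments that overlapped by 5 bases or more, which a single molecule cannot give, made up 19.3%, 13.9% and 10.9% in ES-1 and 13.5%, 3.43% and 3.48% in ES-2. In MEF they were 52 of 56 for Snora63 and 33 of 54 for Snora81. In ES indirect RNA1 lay 3′ of RNA2 in 10 and 5′ of it in 11 of 22 read pairs of Snora63, in 17 and 11 of 37 of Snora81, and in 13 and 1 of 14 of Snora4.

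Of all pairs of RNAs tested in a library, 10.5% were called in ES-1, 1.27% for ES-2, 6.81% in ES indirect and 2.88% for MEF. Pairs with a snoRNA of Eif4a2 were called in 888 of 10569 cases (8.40%) in ES-1, 70 of 6112 (1.15%) for ES-2, 3 of 242 (1.24%) in ES indirect and 16 of 1370 (1.17%) for MEF. These shares lay below those of all pairs in the 4 libraries. By snoRNA, Snora81 was called in 6.52% in ES-1 and 0.699% for ES-2, Snora63 in 10.6% and 1.99%, and Snora4 in 10.2% and 1.48%, so that Snora63 in both and Snora4 in ES-2 lay at or above the share of all pairs. The called pairs gave 856, 66, 3 and 15 different partners. When repeated lines were counted once, 85 partners were called in ES-1, 41 for ES-2, 0 in ES indirect and 10 for MEF. These came from 86 of 10569, 44 of 6112, 0 of 242 and 10 of 1370 pairs. Over all pairs of RNAs, 1478 of 135633, 782 of 108723, 3627 of 142834 and 710 of 84322 were called in that setting, so calls fell over each whole library too.

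A few partners were called in both ES libraries: 6 for Snora81, 9 for Snora63 and 7 for Snora4. Counted by pairs of deposited names tested in both, 23 of 2454 with a snoRNA of Eif4a2 were called in both (0.937%), beside 291 of all 16581 (1.76%), so such repeats were no more frequent here than over all pairs. Snora81 had Stard4, a sterol carrier, with 469 read pairs in ES-1 and 7 for ES-2, the endogenous retrovirus name MYSERV16_I-int (19 and 26), the phosphatase Ptprr (22 and 15), Iqck (12 and 6), the cyclin-like Ccnjl (10 and 8) and the inner ear protein Otoa (6 and 4). Each of these sat at a single site or nearly so, with partner fragments of about 16 to 26 bases. ES indirect held 1 read pair with Stard4 and MEF 1 with Iqck and 1 with Otoa.

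Many of these short fragments carried the snoRNA's own sequence. Compared base by base with the genome at the stated place and with the 3 snoRNA genes, 468 of the 469 Stard4 fragments of ES-1 and all 7 of ES-2 had fewer mismatches to Snora81. The most frequent one, 447 read pairs, had 6 mismatches in Stard4 and 1 in bases 1 to 24 of Snora81. The same held for 18 of 19 and 22 of 26 MYSERV16_I-int fragments, 19 of 22 and 15 of 15 Ptprr fragments, and 6 of 6 and 4 of 4 Otoa fragments, all in the sense direction of Snora81. Fragments named Ccnjl were not closer to the snoRNA (3 mismatches against 7), and those named Iqck were about as close to both places (0 against 1 in ES-1).

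The fragments are shown because the reads themselves carry this result. Capitals mark the bases that equal the snoRNA.
Named Ptprr, bases 113 to 132 of Snora81: AAAGACTGGGGTGGACCTCc
Named Otoa, bases 89 to 113 of Snora81: AGAAAAGTAACTGCACTGGATTGCc
Named Ralgds, bases 121 to 142 of Snora4: CTATATTGTGGCCTACATTGGc
Named Crebbp, bases 127 to 146 of Snora4: TGTGGCCTACATTGGaaaac
Named Gm12374, bases 0 to 15 of Snora63: TAAGCAGGATTTAACT
The Ptprr and Otoa examples end in the same extra C as the snoRNAs' own RNA1 fragments. The Crebbp example matches the 3′ end of Snora4 and then holds A and C. That fragment had 3 mismatches in Crebbp and 5 in the snoRNA gene, so the comparison of mismatches placed it with Crebbp. All mismatches to the snoRNA gene lie in its last 5 bases, and its origin was not settled.

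Snora63 and Snora4 gave the same picture in part. For Snora4, the exchange factor Ralgds (13 in ES-1 and 8 for ES-2) and the glutamate receptor Grm7 (10 and 3) were closer to Snora4 in 13 of 13 and 7 of 8, and in 9 of 10 and 3 of 3 fragments. Fragments of the acetyltransferase gene Crebbp (14 and 3) and the LTR name MLT1A1 (9 and 3) mostly held the last 8 bases of Snora4, in 12 of 14 and 3 of 3 and in 8 of 9 and 2 of 3 fragments. These bases were followed by A in 11 and 1 and in 8 and 2 of them, and no fragment was closer to the snoRNA by mismatches. Swap70 (9 and 3) and the disulfide isomerase Pdia5 (3 and 3) each came from 1 pair of coordinates a library. The Pdia5 fragments lay at the same place in both libraries, but those of Swap70 lay at chr7:117425433-117425505 in the sense direction in ES-1 and at chr7:117426078-117426140 in the opposite direction in ES-2, so the contact itself was not repeated. For Snora63, Rit2 (12 and 8) was closer to the snoRNA in 11 of 12 and 5 of 8 fragments, and all 51 and 10 fragments of Gm12374 matched both places with 0 mismatches. The fragments of Grrp1 (17 and 41) and 6430573F11Rik (5 and 27) had fewer mismatches where they were stated, with medians of 4 and 6 mismatches there, those of Fbxo10 (9 and 6) had 2, and those of the LINE name L1MA8 (14 and 3) had 1.

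Other partners had fragments that matched their stated place. Snora63 was joined to the LINE name L1_Mur3 by 145 read pairs in ES-1, 47 for ES-2, 2 in ES indirect and 1 for MEF. From the totals, 96.7, 30.2, 0.454 and 4.125 were expected. In both ES libraries nearly all lay at 1 site of chromosome X, with a median of 0 mismatches. The strongest call there was under the name of the chromosome 4 copy of Snora63. Snora63 was also joined to ENSMUSG00000065105_SNORA29, another H/ACA snoRNA, by 88 and 16 read pairs, against 48.9 and 7.06 expected. The strand of the SNORA29 fragments was not settled, since it was looked up by a gene name that several genes share. Snora4 was joined to ENSMUSG00000065649_Snora74a by 260 read pairs in ES-1 and 45 for ES-2, against 218 and 16.3 expected, from 125 and 37 distinct coordinate pairs. The strongest call in both ES libraries was under the name of the chromosome X copy of Snora4. Neither the SNORA29 nor the Snora74a contact had a read pair in ES indirect or MEF.

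Over all partners, fragments closer to the 3 snoRNAs than to their stated place made up 11.4% of the fragments of called partners in ES-1 and 13.7% in ES-2, but 0.455% and 0.858% of those of other partners. In ES indirect the called partners gave 0 of 12 fragments and in MEF 0 of 130, which allows a share of up to 2.87% in MEF by the interval. Most fragments were closer to the snoRNAs for 22 of 872 combinations of a snoRNA and a called partner in ES-1 and for 10 of 66 in ES-2. Without such fragments the called partners numbered 840 in ES-1, 54 for ES-2, 3 in ES indirect and 17 for MEF.

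In the libraries that the choice did not use, calls were few. ES indirect called Enah, an actin regulator (5 read pairs, adjusted p = 1.23e-07), and the LTR name MLT1G1 (4, adjusted p = 5.1e-06) for Snora63 and Sh3gl2, an endophilin (3, adjusted p = 3.96e-05), for Snora4, by Fisher's exact test. Each came from a single pair of coordinates, and none was called once repeated lines were counted once. Enah also met the call rule with Snora63 in ES-1 (6 read pairs, 4 of them at another place of the gene), a value that the choice used.

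In MEF, the 5 called partners of Snora81 with most read pairs were Btbd9 (23 read pairs, adjusted p = 0.0241), ENSMUSG00000080540_SNORA76 (17, adjusted p = 0.00288), the exchange factor Kalrn (16, adjusted p = 0.0165), ENSMUSG00000070167_SNORA57 (13, adjusted p = 0.0371) and ENSMUSG00000065637_SNORA14 (11, adjusted p = 0.00612), by Fisher's exact test. All 23 read pairs with Btbd9 and 15 of the 16 with Kalrn held a piece of the linker in either fragment. Over all partners of the 3 snoRNAs in MEF, 45.4% of read pairs did. Fragments of the H/ACA snoRNAs matched their stated places, with medians of 0 to 1 mismatch, and were distinct in 17 of 17, 13 of 13 and 11 of 11 read pairs. The strand of these H/ACA genes was looked up by gene name, which several genes can share. Whether the fragments of SNORA76, SNORA57 and SNORA14 were sense was therefore not settled. These p-values belong to the name of the intronic Snora81 gene alone, with 20, 14, 11, 9 and 10 of the read pairs. With both names joined, Btbd9 was no longer called (adjusted p = 0.077 by Fisher's exact test, 15.4 read pairs expected), and the other 4 kept their calls, with adjusted p from 0.00308 to 0.0136. With both fragments at least 20 nt, none of the 5 partners kept its call, although 16, 12 and 11 read pairs with SNORA76, SNORA57 and SNORA14 remained. With repeated lines counted once, Btbd9 and SNORA57 lost theirs. SNORA76 had 46 read pairs with Snora81 in ES-1, 41 in ES-2 and 1 in ES indirect, against 28.1, 45.5 and 0.0249 expected, and it also met the call rule in ES-1, a value that the choice used. SNORA57 and SNORA14 had 381 and 121 in ES-1, below the 674 and 209 expected.

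Snora63 in MEF was called with ENSMUSG00000064513_SNORA9 (4 read pairs, adjusted p = 0.0494), ENSMUSG00000077426_SNORA66 (4, adjusted p = 0.00408) and ENSMUSG00000077222_SNORA66 (3, adjusted p = 0.0167), by Fisher's exact test. All are H/ACA snoRNAs, and none was called with Snora63 in either ES library. In the same order they had 243, 37 and 47 read pairs with Snora63 in ES-1, below the 315, 93.7 and 89.4 expected. ES-2 had 8, 1 and 2, below 29.5, 7.33 and 8.03. The adjusted p of SNORA9 in MEF belongs to the name of the intronic Snora63 gene alone, with 3 of the 4 read pairs. With both names joined it was 0.0155 by Fisher's exact test. With repeated lines counted once, or with both fragments at least 20 nt, only ENSMUSG00000077426_SNORA66 of the 3 kept its call, and with at least 5 read pairs none did. Snora4 was called with Btbd9 (9) and with the mitochondrial deacetylase Sirt3 (6), of which 8 and 6 read pairs held a piece of the linker. With such pieces left out, chosen after seeing the data, neither pair was called, nor were Btbd9 and Kalrn with Snora81. Whether MEF and ES cells differ in these contacts was not tested.

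By their stated places, fragments of protein-coding genes were of both strands and often intronic. Of those joined to the 3 snoRNAs, 70.1% were in the sense direction in ES-1, 59.6% for ES-2, 71.3% in ES indirect and 60.6% for MEF, and 45.9%, 56.6%, 70.7% and 84.8% were intronic. Their median length was 30, 21, 32 and 22 bases. Over all partners tested, 16.3%, 37.4%, 27.6% and 55.9% of fragments mismatched their stated place at over 15% of their bases. Strand and region are uncertain for such fragments, and their share among protein-coding genes alone was not tested. Of 11 listed genes of H/ACA and C/D particle proteins or their assembly factors, 5 were joined to the snoRNAs in ES-1. They had 15 read pairs in all, led by Dkc1 with 7. In ES-2 it was 3 genes with 4 read pairs. In ES-1 Snora63 met the call rule with Dkc1 and with Nop10, where 10.6% of all Snora63 pairs and 10.5% of all pairs of RNAs met it. No other of these pairs did in any library. ES indirect and MEF had 0.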

How the data were processed

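The deposited tables list read pairs, 1 a line, and no measured number. For each, the authors gave the mapped position, strand and sequence of RNA1 and RNA2 and an RNA type and name, after removing duplicates by barcode and splitting molecules at the linker. The submitters' processing notes name TopHat2 2.1.1 and mm9 (NCBIM37). Read pairs were counted here as lines, with each of the 4 libraries kept apart. The members and lists were chosen with earlier results of these data known. Read pairs with rRNA, without annotation, within 1 RNA or within 2000 bases were set aside, and every remaining pair of names was tested by a one-sided Fisher's exact test with Benjamini-Hochberg adjustment over all observed pairs of the library, checked on simulated data. A call needed an adjusted p under 0.05 and at least 3 read pairs. These p-values describe a library and carry no replicate error. For contacts with Eif4a2 and within the trio, both names of a snoRNA were joined and near pairs kept. The expected count is the product of both totals over all read pairs tested. Partners named are, for each snoRNA, the 8 with most read pairs among those called in both ES libraries and the 5 in ES indirect and in MEF. Fragments were placed on the snoRNA genes by fewest mismatches without gaps. RNA2's stated strand was turned, since its sequence is given on the opposite strand. Fragments of 90 (RNA1) or 100 (RNA2) bases were left out of positions. Other H/ACA names needed at least 100 read pairs. A linker piece is a run of 10 bases of the linker in either fragment of a read pair. Shares have 95% Wilson intervals. Depth was 474526 to 3302146 read pairs a library. Python 3.11.15, pandas 2.3.3, SciPy 1.17.1 and pysam 0.24.0 were used.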

Additional observations from a re-analysis of the deposited data

How the results depend on the processing

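The order of the libraries by share of read pairs was the same with repeated lines counted once, while the number of called partners moved. With repeated coordinates counted once it was 85 in ES-1, 41 in ES-2 and 0 in ES indirect. With at least 5 read pairs it was 391, 32, 1 and 7, the last in MEF, and with at least 2 read pairs it was 157 in ES-2, 19 for ES indirect and 31 for MEF. With fragments of at least 20 nt it was 3 in MEF. With both ES libraries merged it was 768, and leaving out 1 ES library gave 66 to 856. Calls over all pairs of RNAs moved the same way with these minima and with the longer fragments. The minimum of 5 read pairs left 5476 of 14244 calls (ES-1) and 565 of 1386 (ES-2). It left 3794 of 9731 (ES indirect) and 1175 of 2425 (MEF). The minimum of 2 gave 4491 (ES-2), 21079 (ES indirect) and 4726 (MEF). The limit of 20 nt left 241 calls among 19015 tested pairs of MEF. Repeated lines counted once gave a share of the library of 0.0401% in ES indirect and 1.33% in MEF, and fragments of at least 20 nt an rRNA share of 65.0% in ES and 43.1% in MEF. Leaving out pairs within 2000 bases, chosen after seeing the data, gave a ratio within the trio of 0.203 in ES, 0 in ES indirect and 0.184 in MEF, and 0 read pairs with Eif4a2 in ES-1, ES-2 and ES indirect. All 3 intronic genes lie within that distance, so this setting removes contacts between their names by construction. It left 196 of 636 read pairs within the trio in ES-1 and 86 of 110 in ES-2, since the second copies lie elsewhere. Counting a first A that the genome holds, also chosen after seeing the data, gave 12.4% of Snora81 fragments with added A in ES and 27.9% in ES indirect, and repeated lines counted once gave 60.4% of Snora4 fragments in ES. Without pairs within the RNA, 13.9% of Snora81 RNA2 fragments of ES indirect started at the 5′ terminus. Of 153 alternative values, 127 moved by less than the spread, the interval or 1.5 times. Those that left 1 ES library out of a mean of 2 could not move by more than the spread, so they carry no weight in that count. The cause of the larger changes was not tested. Leaving out linker pieces or misnamed fragments and keeping near pairs were also chosen after seeing the data. No paired analysis was possible because the groups compared share fewer than 2 replicate numbers.

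ES indirect gave the fewest read pairs of the 3 snoRNAs, 741, and no comparison between groups has more than 1 library outside ES. A repeated line can be an amplified molecule or a further molecule cut at the same bases, which the files do not separate.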
